A study of Mus musculus with 24 samples.

Results

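The genes described here are 10 mouse genes of the cytosolic nucleic acid sensing system, chosen by symbol: Ddx58, Ifih1, Dhx58, Mavs, Zbp1, Aim2, Ikbke, Eif2ak2, Adar and Trex1. Each symbol was found in the gene column of all 6 tables of the series, so that 10 of 24411 genes were taken. They belong together by function, and they were chosen with earlier results of these data known. Their counts and medians set beside all genes are therefore descriptive.

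Cells watch their cytosol for RNA and DNA that should not be there, whether from a virus or from their own nucleus, mitochondria and mobile elements. The helicases RIG-I (Ddx58) and MDA5 (Ifih1) bind double-stranded RNA and pass the signal to MAVS on the mitochondrial surface, from which kinases that include IKK-epsilon (Ikbke) switch on interferon genes. Many of the sensors are themselves induced by interferon, and enzymes that edit or degrade nucleic acids, such as ADAR1 and TREX1, keep the cell's own molecules from setting off the alarm, in glia as in other cells.

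The study behind these libraries asked whether mutant SOD1, a cause of familial amyotrophic lateral sclerosis, changes how astrocytes and microglia behave on their own in culture, at rest and after an inflammatory stimulus. Astrocytes came from the forebrain of mice at postnatal day 5 by immunopanning, in which dishes coated with antibodies first remove cells that carry CD45 or O4 or bind the lectin BSL I and then hold astrocytes by HepaCAM. Microglia came from whole brain at postnatal days 7 to 10 by magnetic sorting for CD11b. Bulk RNA-seq of poly(A) RNA was made from 3 cultures a group.

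The groups were WT and SOD1G93A astrocytes given PBS (quiescent) or a mix of IL-1α, TNFα and C1q, whose doses in ng/mL were 3, 30 and 400 (activated), WT microglia given PBS (quiescent) or LPS at 50 ng/mL (activated), and SOD1G93A microglia given the same LPS. SOD1G93A mice carry a transgene of mutant human SOD1, and the study's methods describe a line bred into C57BL/6J for 8 generations. Both cell types were kept in serum-free media, which differed between them, and how long the stimuli lasted is not stated in the labels. These 7 conditions make 21 libraries, and SOD1G93A quiescent microglia, with 3 libraries, were not analysed here. A library held between 2016139 and 11570122 reads assigned to genes, with a median of 5098168.

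The values are normalized counts, in which the authors divided the reads of each gene by a size factor of the library within its table. Each of the tables was normalized separately, so the levels set side by side over all conditions below are RPM, the whole reads recovered from the normalized counts of a gene per 1000000 recovered in the library. For comparisons, limma with an intensity trend was fitted to log2(normalized count + 1) over all genes with a mean of at least 10, and a gene was called at a Benjamini-Hochberg adjusted p under 0.001 if its level also differed over 2-fold. With 3 libraries a group the fit rests on little replication, and the p-values measure only the spread between these samples, since nothing in the labels says that they come from separate animals. In bulk RNA, fewer cells of a type and less RNA per cell cannot be told apart.

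A pair of microglia libraries stood apart from their groups. Across genes, the squared difference in reads between replicates 1 and 2 of SOD1G93A activated microglia was 2.41 times what counting error gives, against 16.8 and 21.7 for replicate 3 with each of them, and the SD of the log2 difference was 0.170 against 0.395 and 0.406. In WT activated microglia the same measure was 1.65 between replicates 2 and 3, against 15.05 and 13.8 for replicate 1 with each of them, and the SD was 0.210 against 0.357 and 0.350. In quiescent astrocytes the SD set no single library apart. It was 0.292 between replicates 1 and 2, 0.302 between 2 and 3 and 0.425 between 1 and 3 in WT, and 0.230, 0.242 and 0.349 in the same order in SOD1G93A cells. The squared difference over counting error did set libraries apart there. That measure grows with depth, and those libraries, WT replicate 3 (9258718 reads) and SOD1G93A replicate 1 (9526331 reads), were the deepest of their groups. In WT it was 2.08 between replicates 1 and 2, against 9.45 and 6.82 for replicate 3 with each of them. In SOD1G93A cells it was 2.88 between replicates 2 and 3, against 6.77 and 10.4 for replicate 1 with each of them. Among quiescent WT astrocytes, replicate 1 had the fewest reads of all (2016139), and its values for several members rest on 10 reads or fewer. Values without the microglia libraries and without single quiescent astrocyte libraries are given below.

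The cell types carried their defining markers. A list of 10 astrocyte markers summed to between 4158 and 6228 RPM in the 12 astrocyte libraries, with Slc1a3 the most abundant, and to between 139 and 233 in the 9 microglia libraries. A list of 10 microglia markers summed to 10477 ± 355 (SD, n = 3) in quiescent microglia, 2852 ± 58.9 in WT and 3653 ± 917 in SOD1G93A activated microglia. The same list summed to between 156 and 362 in the astrocyte libraries, where no microglia marker was at 0 in every library of a group. The 10 genes of the oligodendrocyte lineage list summed to 2922 ± 89.0 in quiescent WT astrocytes and 1075 ± 30.6 in activated WT astrocytes, Olig1 being the most abundant in both, with Mog at 0 in every quiescent WT library. Mouse Sod1 was 258 ± 24.3 RPM in quiescent WT astrocytes and 268 ± 17.1 in quiescent SOD1G93A astrocytes.

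**Figure D1:**
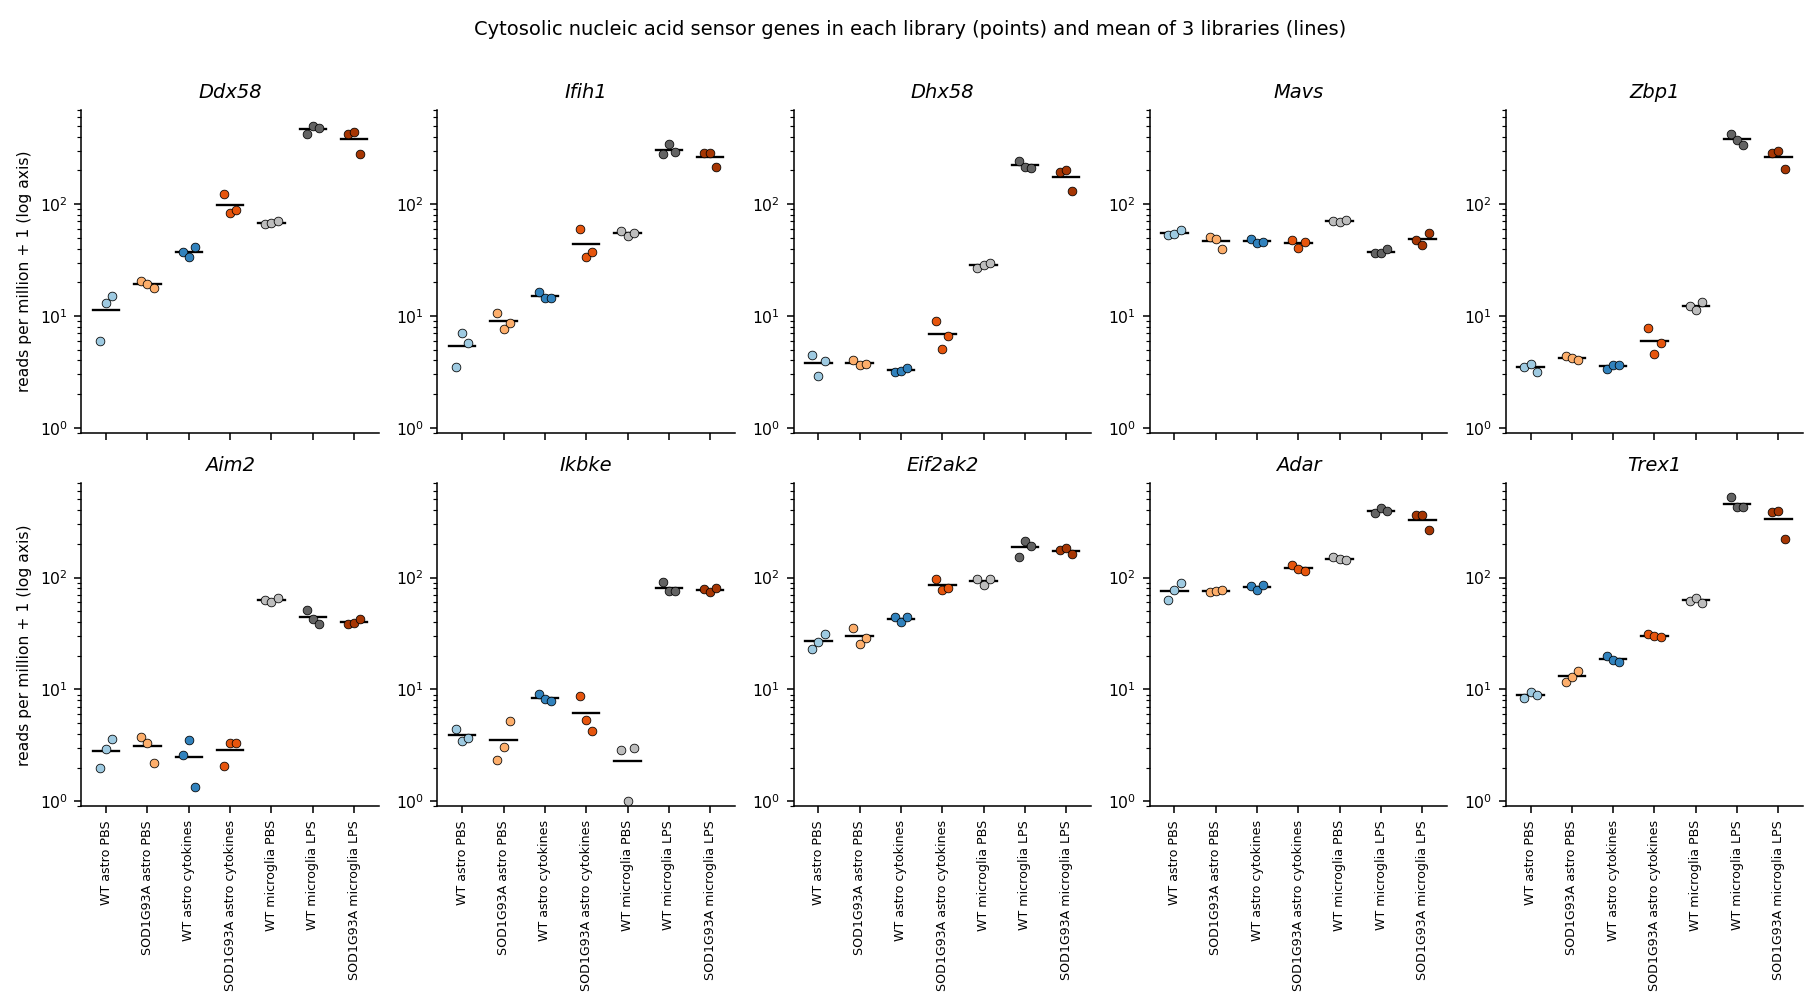
RPM plus 1 (log axis) of the 10 genes in each of 21 libraries (points), grouped by cell type, genotype and treatment, with the mean of 3 libraries (lines). Mavs stays within a narrow band in all 7 conditions, whereas Zbp1 runs from 2.46 RPM in quiescent WT astrocytes to 377 in activated WT microglia.

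The RNA helicases spanned wide ranges of level. Ddx58, whose product RIG-I binds short double-stranded RNA with a 5′ triphosphate, was highest in activated WT microglia at 467 ± 37.9 RPM (SD, n = 3) and lowest in quiescent WT astrocytes at 10.4 ± 4.82. Between these it ran through activated SOD1G93A microglia (379.9 ± 87.7), activated SOD1G93A astrocytes (97.1 ± 21.8), quiescent microglia (67.0 ± 2.01), activated WT astrocytes (36.3 ± 3.84) and quiescent SOD1G93A astrocytes (18.1 ± 1.36). Of the neighbours in this order, the ranges overlapped only between the activated microglia of both genotypes. Ifih1, which encodes the sensor of long double-stranded RNA, ran in nearly the same order, from 305 ± 35.0 to 4.43 ± 1.81, with quiescent microglia (53.8 ± 2.54) and activated SOD1G93A astrocytes (42.6 ± 14.3) overlapping. Dhx58 encodes LGP2, a helicase of the same family without signalling domains that modulates the other members. It was at 222 ± 17.9 in activated WT microglia, 175 ± 37.9 in activated SOD1G93A microglia and 27.3 ± 1.61 in quiescent microglia, but between 2.28 and 5.92 in the 4 astrocyte conditions, of which only activated SOD1G93A astrocytes (5.92 ± 2.01) lay clear of their neighbour.

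Mavs, the shared adaptor of RIG-I and MDA5, had the smallest range of the 10 genes, from 69.7 ± 1.89 RPM in quiescent microglia to 36.6 ± 1.82 in activated WT microglia, a ratio of 1.90. The conditions between those ends lay from 43.6 to 54.0 and overlapped each with the next, except that quiescent microglia and activated WT microglia stood clear at either end. Ikbke, a kinase that acts beside TBK1 on interferon regulatory factors, was at 79.7 ± 8.75 and 77.3 ± 3.48 in activated WT and SOD1G93A microglia, 7.44 ± 0.608 and 5.13 ± 2.36 in activated WT and SOD1G93A astrocytes, and under 3 in the other conditions. Quiescent microglia held 19, 0 and 14 reads of Ikbke, the lowest of the order at 1.30 ± 1.12, and a count of 0 in 2550560 reads allows up to 3 reads. Only the step from activated microglia to astrocytes separated neighbours for this gene.

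Zbp1 and Aim2 were both higher in every microglia condition than in any astrocyte condition. Zbp1, a sensor of nucleic acids in the left-handed Z form that can start necroptosis, had the widest range, with a ratio of 153 between the highest and the lowest condition. It was at 377 ± 41.2 RPM in activated WT microglia and 263 ± 49.6 in activated SOD1G93A microglia, which did not overlap, then 11.3 ± 1.03 in quiescent microglia and from 2.46 to 4.99 in astrocytes. Aim2, which binds double-stranded DNA and builds an inflammasome, was highest in quiescent microglia at 62.1 ± 2.82, followed by activated WT (43.2 ± 6.10) and SOD1G93A microglia (39.3 ± 2.42), which overlapped. All 4 astrocyte conditions lay between 1.48 and 2.10 for Aim2 and overlapped each other, at 2 to 26 reads a library.

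The kinase and the enzymes were present in every condition. Eif2ak2 encodes PKR, which halts translation when it binds double-stranded RNA. It was at 186 ± 30.3 and 173 ± 11.2 RPM in activated WT and SOD1G93A microglia, 92.6 ± 6.21 in quiescent microglia, 84.3 ± 10.6 and 42.0 ± 2.48 in activated SOD1G93A and WT astrocytes, and 28.9 ± 5.29 and 26.0 ± 4.27 in quiescent SOD1G93A and WT astrocytes. Adar, the enzyme that edits adenosine to inosine in double-stranded RNA, ran from 397 ± 17.5 in activated WT microglia to 75.0 ± 2.20 in quiescent SOD1G93A astrocytes, with the 3 lowest conditions overlapping each with the next. Trex1, a DNA exonuclease of the cytosol, ran from 457 ± 55.1 in activated WT microglia to 7.98 ± 0.541 in quiescent WT astrocytes, and it was the one gene of the 10 for which no neighbours among the 7 conditions overlapped. All 1147 exon bases of Trex1 lie within exons of Atrip on the same strand in the annotation used, and the tables hold 18285 reads for Trex1 and 1202 for Atrip. Adar shares 1365 exon bases with Chrnb2 on the opposite strand, at 22656 and 386 reads. Which annotation was counted, and whether by strand, is not stated in the labels or the methods, which refer to an online pipeline for the options. How reads of these overlaps were assigned is therefore not known here.

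Per kilobase of exon, the leading gene changed with the condition. Lengths were the annotated exon bases of each gene, from 1147 for Trex1 to 9018 for Ikbke. Which transcripts were present was not measured, so the order of genes rests on these lengths. In activated WT microglia Ikbke lay above Mavs in RPM (79.7 against 36.6) but below it per kilobase, at 9018 and 3345 bases. The Trex1 values also depend on how reads of its overlap with Atrip were assigned, which is not known here. In quiescent WT astrocytes Mavs led at 16.1 RPM per kilobase, ahead of Adar (9.31) and Trex1 (6.96), and Ikbke was last at 0.320. In activated WT astrocytes Trex1 led at 15.4, with Mavs at 13.7. In activated SOD1G93A astrocytes Trex1 (25.5), Eif2ak2 (16.5), Adar (14.9) and Ddx58 (13.8) all lay above Mavs (13.02). In quiescent microglia the order was Trex1 (53.7), Mavs (20.9) and Eif2ak2 (18.1), and in activated WT microglia Trex1 (399), Zbp1 (107) and Dhx58 (68.0), with Mavs at 10.9 ahead of Ikbke alone.

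The cell types at rest were compared on size factors set over the 6 quiescent WT libraries, since no table holds both. Cell type goes with age, isolation and medium here and cannot be told apart from them. Aim2 stood at 3.73, 7.43 and 10.6 normalized counts in astrocytes and 357, 351 and 378 in microglia, a log2 difference of 5.55 (SE 0.292, adjusted p 2.54e-08). Ifih1 was at 9.32, 23.4 and 19.3 in astrocytes and 321, 302 and 318 in microglia, a log2 difference of 4.19 (SE 0.279, adjusted p 1.66e-07). Every microglia library lay far above every astrocyte library for both genes. In all, 8 of the 9 genes tested were called, each higher in microglia, where 47.3% of all 12064 genes tested were called and 22.5% were called higher. The other log2 differences were 3.80 for Dhx58, 3.49 for Trex1, 3.37 for Ddx58, 2.66 for Zbp1, 2.41 for Eif2ak2 and 1.55 for Adar. None of the 9 overlapped, where 81.4% of all genes tested did not. Mavs stayed under 2-fold at 0.95 (adjusted p 1.09e-05), though not without astrocyte replicate 3 (1.03), and Ikbke had too few reads to be tested. The median over the 9 genes was 3.37, beside -0.04 over all genes tested. Ifih1, Dhx58, Zbp1 and Aim2 passed the filter on the mean while at least 1 astrocyte library was under 10, Zbp1 and Aim2 only through their microglia libraries, and where every library had to reach 10, 5 genes were tested and 4 called (Ddx58, Eif2ak2, Adar and Trex1). Without astrocyte replicate 1 the same 8 were called, among them Aim2 at 5.20, Ifih1 at 3.82 and Ddx58 at 2.89.

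**Figure D2:**
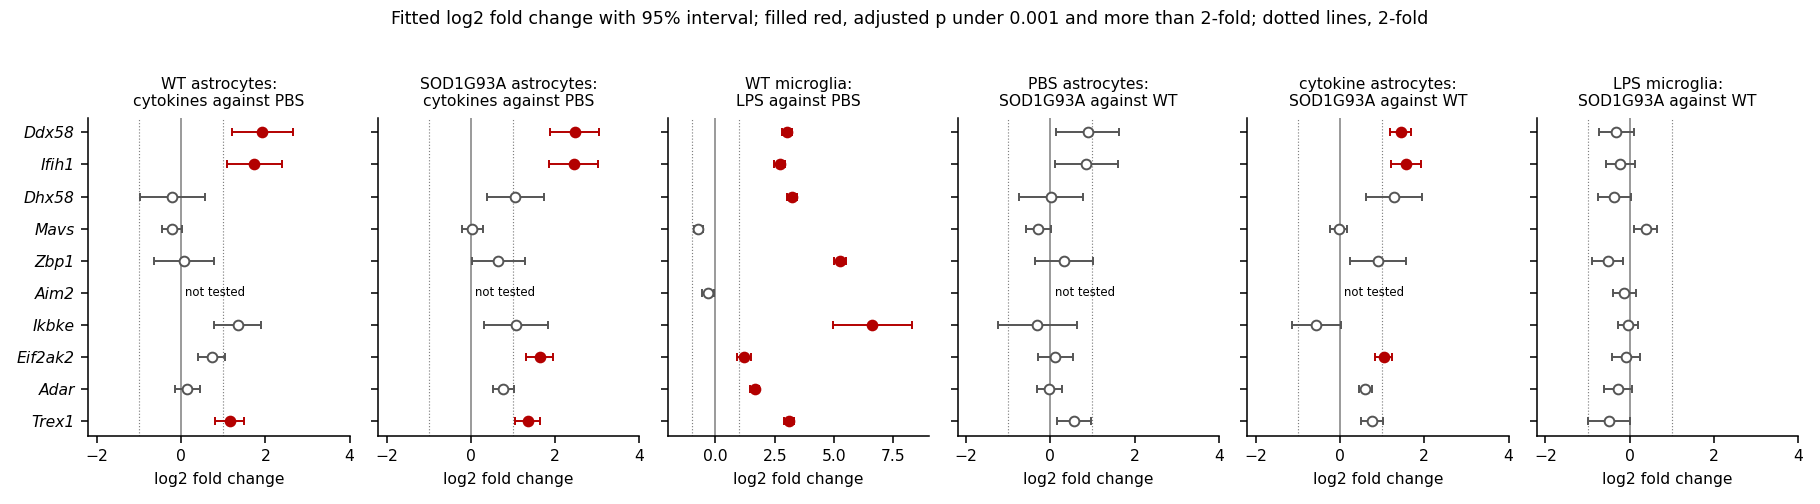
Fitted log2 difference (points) and its 95% interval (lines) for the 10 genes, where tested, in 6 comparisons, with genes called at an adjusted p under 0.001 and more than 2-fold filled in red. The largest difference shown is 6.61, for Ikbke with LPS in microglia, and the genotype comparisons of quiescent astrocytes and of activated microglia hold no called gene.

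Activated and quiescent WT astrocytes were compared to find what the 3 added proteins change. Ddx58 was at 23.3, 57.7 and 69.9 normalized counts in quiescent and 176, 157 and 199 in activated libraries, and it rose by 1.93 on the log2 scale (SE 0.323, adjusted p 0.000662). Its lowest quiescent value, in replicate 1, came from 10 reads, and all activated libraries lay above all quiescent ones. Ifih1 rose from 11.6, 28.9 and 23.5 to 74.2, 65.6 and 67.3, by 1.74 on the log2 scale (SE 0.296, adjusted p 0.000743), again without overlap. Trex1 rose from 34.9, 40.7 and 39.5 to 92.6, 83.4 and 82.8, by 1.15 on the log2 scale (SE 0.161, adjusted p 0.000182). These were 3 of 9 genes tested, where 11.5% of all 12336 genes were called and 6% were called higher. The calls sat close to the limit. Without any one of the activated WT libraries none of the 9 passed (adjusted p from 0.00155 to 0.00667 for the 3), and without quiescent replicate 2 Ddx58 did not (0.00253). By limma without the trend Ddx58 (0.00809) and Ifih1 (0.00467) did not pass, nor did Ddx58 under quantile normalization (0.00104) or Ifih1 with no filter on low values (0.00124). Over all settings the adjusted p ran from 8.6e-11 to 0.00809 for Ddx58, from 2.29e-06 to 0.00667 for Ifih1 and from 4.61e-05 to 0.00253 for Trex1, although the log2 changes of all 3 stayed between 1.07 and 2.23 under every setting tried. Without quiescent replicate 3 the same 3 were called.

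The other WT astrocyte values lay on both sides of 0. Ikbke was at 16.3, 11.8 and 13.3 in quiescent and 39.5, 34.9 and 34.5 in activated libraries without overlap, and its log2 difference of 1.34 missed the limit with the settings used throughout (adjusted p 0.00134) but passed it by edgeR (0.000671), by limma without the trend (0.000405), with at least 10 in every library (0.000743), with a pseudocount of 5 (0.000975) and without quiescent replicate 1 (0.000488), with a range from 0.000405 to 0.013 over all settings. Eif2ak2 was at 102, 123 and 149.9 and then 210.2, 189 and 216, a log2 difference of 0.72 (adjusted p 0.00231). Adar (0.15), Zbp1 (0.07), Dhx58 (-0.20) and Mavs (-0.21) had adjusted p-values from 0.133 to 0.882, and the signs of Zbp1 (-0.14 under quantile normalization) and Adar (-0.00 without quiescent replicate 1) were not firm. Groups did not overlap for 6 of the 9 genes, Mavs among them, against 50.9% of all genes tested. The median log2 difference of the 9 was 0.72, beside 0.01 over all genes. Aim2 had a mean under 10 and was not tested.

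Markers of other cells also moved with this activation. The endothelial list of 8 genes summed to 12.1 ± 2.18 RPM (SD, n = 3) in quiescent and 148 ± 8.12 in activated WT astrocytes, with Flt1 the most abundant in both, Cldn5 at 0 in every library and 1 of 1 gene tested called higher. Flt1 alone went from 8.85 to 144, so the rise of the sum was that of Flt1, and Cdh5 was at 0 in every activated library. The neuron list of 8 summed to 894 ± 119.5 and then 443 ± 30.8, with Map2 the most abundant and none at 0 throughout a group, while 3 of its 6 genes tested rose and 1 fell. Map2 alone went from 872 to 384, and the rest of the list together went up. In the oligodendrocyte lineage list 3 of 8 genes tested fell and none rose. The list of 8 for pericytes and fibroblasts summed to 52.1, 78.6 and 90.8 and then 119, 124 and 110.4, with 2 of 5 genes tested called higher, Kcnj8 at 0 throughout and its most abundant gene, Cspg4, at 61.4 and then 67.9. The part of these cells in the member values was not tested, and panning with BSL I and against O4 is the step that would take endothelial and oligodendrocyte lineage cells out.

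For SOD1G93A astrocytes no table sets activated against quiescent cells, so the contrast was fitted over all 12 astrocyte libraries on size factors of their own. Ddx58 rose by 2.47 on the log2 scale (adjusted p 1.02e-06), Ifih1 by 2.44 (1.35e-06), Eif2ak2 by 1.63 (1.32e-07) and Trex1 by 1.35 (5.36e-07), so that 4 of 9 were called, beside 13.3% of 12269 genes, 6.74% being called higher. Groups did not overlap for 7 of the 9, where 52% of all genes tested did not. These 4 kept their calls by DESeq2, by edgeR and without any one of the 12 libraries. Adar had a small adjusted p at less than 2-fold (0.77, adjusted p 3.99e-05). Dhx58 (1.05, adjusted p 0.0132), Ikbke (1.07, 0.0246), Zbp1 (0.65, 0.0898) and Mavs (0.03, 0.841) were not called. The median was 1.07, beside -0.00 over all genes. Marker sums moved between these groups too, from a mean of 3290.3 to 1052 RPM for the oligodendrocyte lineage list (most abundant Olig1), 966 to 421 for neurons (Map2), 8.46 to 116 for endothelial cells (Flt1, with Cldn5 and Cdh5 at 0) and 316 to 187 for microglia, and their part in the member values was not tested. Map2 alone went from 952 to 379, while the rest of the neuron list together went up. Flt1 alone went from 5.45 to 113, so the rise of the endothelial sum was that of Flt1.

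Whether the response differs by genotype was tested as an interaction in the same 12 libraries. None of the 9 genes was called, and of all 12269 genes 0% were by limma, 21 genes by DESeq2 and 4 by edgeR, while 1018 genes (8.3%) had an unadjusted p under 0.05. The largest log2 differences between the responses were 1.26 for Dhx58 (unadjusted p 0.013, adjusted 0.437), 0.91 for Eif2ak2 (0.000639, 0.121), 0.71 for Ifih1 (0.0889, 0.670) and 0.62 for Adar (0.00169, 0.205). Ddx58 (0.54), Zbp1 (0.58), Mavs (0.25), Trex1 (0.20) and Ikbke (-0.26) had unadjusted p-values of 0.156 and above. Sizes moved with the setting, and so did their order. Over all settings Ddx58 ran from 0.24 to 1.01 (adjusted p 0.045 to 0.945) and Ifih1 from 0.46 to 1.08 (0.168 to 0.886), never called. So Eif2ak2, called in one genotype and not in the other, was not shown to respond differently.

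SOD1G93A and WT astrocytes were compared under the same activation, which asks whether the mutant changes the activated state. Ddx58 was at 152, 135 and 171 normalized counts in WT and 524, 353 and 381 in SOD1G93A libraries, with a mean of 153 ± 17.7 against 420 ± 91.9 (SD, n = 3). It was higher by 1.44 on the log2 scale (SE 0.121, adjusted p 7.19e-08). Every SOD1G93A library lay at more than 2 times the highest WT library, and replicate 1 was the highest. Ifih1 was at 64.0, 56.6 and 57.7 in WT and 253, 139.8 and 159 in SOD1G93A libraries, higher by 1.57 (SE 0.167, adjusted p 2.03e-06), with replicate 1 again on top. Eif2ak2 was at 181, 163 and 186 in WT and 414, 329 and 350.2 in SOD1G93A libraries, higher by 1.04 (SE 0.0955, adjusted p 2.62e-07). Its change lay near 2-fold, and it fell under that limit without WT replicate 2 (0.98) or without SOD1G93A replicate 1 (0.94).

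These 3 were called of 9 tested, where 0.645% of all 12098 genes were called and 0.521% were called higher. Adar (349, 316 and 364 against 557, 516 and 491) and Trex1 (79.7, 72.0 and 71.0 against 129, 126 and 124) did not overlap either, at log2 differences of 0.60 (adjusted p 2.5e-05) and 0.76 (0.000397) that were under 2-fold. Dhx58 was at 9.14, 9.23 and 10.3 in WT and 34.7, 17.6 and 24.4 in SOD1G93A libraries, a difference of 1.28 (SE 0.319) at few reads (adjusted p 0.0166), and Zbp1 at 9.97, 11.1 and 11.1 against 28.9, 15.4 and 20.4, a difference of 0.90 (adjusted p 0.1). Groups thus did not overlap for 7 of the 9 genes, where 24.1% of all genes tested did not. Ikbke (-0.56, adjusted p 0.269) and Mavs (-0.03, adjusted p 0.907) overlapped. An adjusted p under 0.05 at any fold change was reached by 6 of the 9, beside 7.27% of all genes. Dhx58 is in both counts, yet its WT mean was 9.57 and it passed the filter only through its SOD1G93A libraries. Where every library had to reach 10, Dhx58 and Zbp1 were not tested, and the same 3 of 7 genes tested were called. The median was 0.90, beside -0.00 over all genes. DESeq2 and edgeR called the same 3 genes, whereas limma without the intensity trend called 0 of the 9 and 1 gene of all, with adjusted p-values of 0.0149, 0.0255 and 0.012 for Ddx58, Ifih1 and Eif2ak2, the highest of ranges that began at 3.5e-22, 1.4e-13 and 3.2e-15.

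Markers of other cells were measured beside that difference. The summed microglia list was 191, 306 and 165 RPM in activated WT and 229, 163 and 170 in activated SOD1G93A astrocytes, and 1 of its 9 genes tested had a positive log2 difference, with a median of -0.14. None of the 10 was at 0 throughout a group. The oligodendrocyte lineage list summed to 1072, 1108 and 1047 and to 1058, 1016 and 1083. Sums were lower in SOD1G93A without overlap for the endothelial list (139, 149 and 155 against 119, 117 and 112, mostly Flt1, with Cldn5 and Cdh5 at 0) and for the list of pericytes and fibroblasts (119, 124 and 110.4 against 109, 108 and 100.2, mostly Cspg4, with Kcnj8 at 0 in WT). Their part in the member values was not tested. Panning with CD45, BSL I and O4 was meant to remove microglia, endothelial and oligodendrocyte lineage cells before culture.

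Quiescent SOD1G93A and WT astrocytes were compared to see whether the genotypes differ at rest. Ddx58 was at 24.6, 60.1 and 72.5 normalized counts in WT and 97.9, 89.0 and 81.5 in SOD1G93A libraries, a log2 difference of 0.89 (SE 0.336, unadjusted p 0.024 by limma, adjusted 0.505). Ifih1 was at 12.3, 30.1 and 24.3 against 48.1, 32.4 and 37.0, a difference of 0.86 (adjusted p 0.515), and Trex1 at 36.8, 42.4 and 40.9 against 53.4, 58.7 and 66.7, a difference of 0.56 (unadjusted p 0.0122, adjusted 0.459). The groups of these 3 genes did not overlap, and WT replicate 1, with the fewest reads, was the lowest WT library for each. None of 9 genes was called, nor was any of 12271 (0%) by limma, with 1068 (8.7%) at an unadjusted p under 0.05, 7 called by DESeq2 and 0 by edgeR. Groups did not overlap for 5 of the 9, Mavs (-0.28) and Zbp1 (0.33) being the others, where 14.6% of all genes tested did not. Eif2ak2 (0.12), Dhx58 (0.03), Adar (-0.02) and Ikbke (-0.30) overlapped, and the sign of each of these 4 turned when some single libraries were left out. Dhx58 (-0.09) and Adar (0.01) also turned under quantile normalization. The median was 0.12, beside 0.00 over all genes.

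Without WT replicate 1 the difference was 0.43 for Ddx58 and 0.50 for Ifih1, the lowest of any setting, and over all settings it ran from 0.43 to 1.19 for Ddx58, from 0.50 to 1.11 for Ifih1 and from 0.48 to 0.63 for Trex1. Without WT replicate 3 these 3 stood at 1.19, 0.97 and 0.57, and without SOD1G93A replicate 1 at 0.83, 0.70 and 0.63, with none called. Markers of other cells moved beside these values. The summed level of the microglia list was 156, 218 and 273 RPM in WT and 346, 362 and 241 in SOD1G93A quiescent astrocytes, with Csf1r the most abundant in both groups and no marker at 0 throughout. All 9 of the list's genes tested had a positive log2 difference, with a median of 0.57 and none called. The oligodendrocyte lineage list, led by Olig1, summed to 3009, 2927 and 2831 in WT and 3437, 3193 and 3241 in SOD1G93A libraries without overlap, with 4 of 8 genes tested positive, and the astrocyte list, led by Slc1a3, had a mean of 5544 ± 628 against 4678 ± 492 (SD, n = 3), with 2 of 10 positive. The part of these markers in the member values was not tested, and panning against CD45 and O4 is the step that would take microglia and oligodendrocyte lineage cells out. The comparisons of astrocytes share control libraries, the quiescent WT ones between activation and genotype at rest and the activated WT ones between activation and genotype after it, so their values stand side by side and not as separate evidence.

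LPS-activated and quiescent WT microglia were compared for the response of the second cell type. Zbp1 was at 58.4, 54.7 and 64.3 normalized counts in quiescent and 2505, 2331 and 2057 in activated libraries, and it rose by 5.25 on the log2 scale (SE 0.108, adjusted p 9.4e-11). Ikbke was at 9.64, 0 and 10.6 in quiescent and 535, 467 and 454 in activated libraries, and it rose by 6.61 (SE 0.747, adjusted p 2.79e-05), a size that moved with single libraries and with the pseudocount. It was 5.45 without quiescent replicate 2, the library with 0 reads of Ikbke, and 7.22 without quiescent replicate 3, the ends of its range over all settings, and 6.98 with a pseudocount of 0.5 and 5.55 with 5. For both genes the activated libraries lay far above the quiescent ones, and the Ikbke figure rests on a baseline of 19 reads at most. Ikbke passed the filter on the mean only through its activated libraries, and where every library had to reach 10 it was not tested.

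The helicases rose as well. Ddx58 went from 336, 358 and 363 to 2540.2, 3137 and 2886, by 3.01 (SE 0.0947, adjusted p 1.66e-09), and Ifih1 from 288, 273 and 286 to 1664, 2161 and 1774, by 2.71 (SE 0.105, adjusted p 7.67e-09). Dhx58 went from 132, 147 and 151 to 1449.7, 1339 and 1283, by 3.23 (SE 0.0957, adjusted p 1.08e-09). The library that stood apart, activated replicate 1, was the lowest activated library for Ddx58 and Ifih1 and the highest for Dhx58, Zbp1, Ikbke and Trex1. Trex1 rose by 3.10 (adjusted p 1.62e-09), Adar by 1.65 (4.59e-08) and Eif2ak2 by 1.21 (1.8e-05).

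These were 8 of 10 genes, where 20.8% of all 10866 genes tested were called and 10.2% were called higher. Where every library had to reach 10, 9 genes were tested and 7 called, without Ikbke. The same 8 were called by DESeq2, by edgeR, by limma without the trend and without any one of the 6 libraries. Mavs and Aim2 had the other sign. Mavs was at 359.8, 364 and 376 in quiescent and 212, 224 and 236 in activated libraries, a log2 difference of -0.71 that was under 2-fold (adjusted p 8.79e-05), and Aim2 at 320.2, 318 and 341 and then 297, 263 and 230.5, a difference of -0.31 (adjusted p 0.0353). Groups overlapped for none of the 10, where 64.6% of all genes tested did not overlap. The median was 2.86, beside 0.00 over all genes. Of the microglia marker list 8 of 10 genes were called lower with LPS, at a median of -2.01, and its summed level was 10352, 10878 and 10202 RPM in quiescent and 2898, 2785 and 2872 in activated libraries, Csf1r being the most abundant at rest. The list of 8 peripheral macrophage and monocyte genes, mostly Ms4a7, with Cd163 and Lyve1 at 0, summed to 41.4, 43.9 and 42.6 and then 240.7, 183 and 182, with 3 of 5 genes tested called higher. The oligodendrocyte lineage list, mostly Cspg4, had a mean of 1343 and then 111, with 2 of 5 genes tested called lower. The part of these lists in the member values was not tested. The study's methods describe perfusion of the mice as the step to clear circulating macrophages and monocytes, while the sort for CD11b does not part microglia from macrophages.

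SOD1G93A and WT microglia were compared under LPS, and that comparison shares the activated WT libraries with the one before. None of the 10 genes was called, nor was any of 10679 (0%) by limma or edgeR, while DESeq2 called 3 genes and 930 (8.71%) had an unadjusted p under 0.05. Zbp1 was at 2487, 2312 and 2058 in WT and 1756, 1834 and 1229 in SOD1G93A libraries, a log2 difference of -0.53 (SE 0.16, unadjusted p 0.00981, adjusted 0.571). Trex1 was at 3086, 2662 and 2576 against 2396, 2426 and 1305, a difference of -0.49 (adjusted p 0.577). Groups did not overlap for 5 of the 10, namely Zbp1, Trex1, Dhx58 (-0.37), Adar (-0.28) and Mavs (0.38), where 18.2% of all genes tested did not. Ddx58 (-0.32), Ifih1 (-0.22), Aim2 (-0.12), Eif2ak2 (-0.09) and Ikbke (-0.03) overlapped. The median was -0.25, beside 0.01 over all genes.

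The libraries that stood apart bore on these values. SOD1G93A replicate 3 was the lowest of the 6 for Ddx58, Ifih1, Dhx58, Zbp1, Adar and Trex1 and the highest for Mavs, and the microglia marker list summed to 4711 RPM in it, against 3148 and 3099.5 in its replicates and 2898, 2785 and 2872 in WT. All 10 of those markers had a positive log2 difference, Csf1r being the most abundant in SOD1G93A, and their part in the member values was not tested. Without SOD1G93A replicate 3 alone, Ddx58 was at -0.09, Ifih1 at -0.07 and Dhx58 at -0.16, and no member was called. Without that library and without WT replicate 1, which left 2 against 2, Zbp1 was at -0.28 (SE 0.0583, adjusted p 0.0129), Ddx58 at -0.18, Eif2ak2 at -0.17, Adar at -0.16, Ifih1 at -0.15, Trex1 at -0.12, Dhx58 at -0.11, Aim2 at -0.07, Ikbke at 0.03 and Mavs at 0.26. None was called, of 3 genes called in all. Over all settings the adjusted p of Zbp1 ran from 0.0129 to 0.855.

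The responses of the cell types were set against each other as an interaction over the 12 WT libraries, on size factors of their own. The stimuli differ between the cell types, so cell type and stimulus cannot be told apart, and the libraries are those of both WT activation comparisons. The response to LPS in microglia was larger than that to cytokines in astrocytes by 5.38 on the log2 scale for Ikbke (SE 0.965, adjusted p 0.000435), 5.21 for Zbp1 (SE 0.212, 4.1e-10), 3.46 for Dhx58 (SE 0.259, 1.11e-07), 1.98 for Trex1 (SE 0.156, 1.84e-07) and 1.52 for Adar (SE 0.179, 9.83e-06). These 5 of 10 were called, beside 15.2% of 12334 genes, 6.73% being called with the larger response in microglia. Ikbke lost its call without any one of the 6 astrocyte libraries or any one of the 3 activated microglia libraries (adjusted p 0.00118 to 0.00146), and over all settings its adjusted p ran from 1.1e-24 to 0.00285. Where every library had to reach 10, 6 genes were tested and only Adar and Trex1 were called. Ddx58 (1.11, adjusted p 0.0364) and Ifih1 (1.01, 0.0235) were not called by limma with all libraries. With all libraries DESeq2 called both (1.40, 2.18e-07, and 1.16, 5.56e-05) and edgeR called Ddx58 (1.39, 0.000237), and limma called both without quiescent WT astrocyte replicate 1, the library with the fewest reads (1.59, 5.61e-06, and 1.38, 2.41e-05). Quantile normalization gave the smallest differences, 0.31 for Ddx58 and 0.35 for Ifih1. Over all settings the differences ran from there to 1.59 and 1.38, and the adjusted p-values from 2.18e-07 to 0.626 and from 2.41e-05 to 0.374. Eif2ak2 (0.51, adjusted p 0.0668), Aim2 (0.14, 0.877) and Mavs (-0.47, 0.0137) were not called. The median was 1.32, beside 0.00 over all genes.

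The other genes of the pathway came from 8 lists with 94 genes in all, likewise chosen with earlier results of these data known. In activated WT astrocytes 8 of 80 tested rose and 1 fell, where 11.5% of all genes were called. The count of 9 went to 4 by limma without the trend, without quiescent replicate 2 and without activated replicate 1 or 3, and to 5 without activated replicate 2. Those called were Casp1 (3.17 on the log2 scale), Rnf125 (2.36), Ifi204 (1.65), Casp8 (1.56), Oasl2 (1.36), Rnaset2b (1.21), Traf2 (1.11), Trim25 (1.07) and Prkdc (-1.002). Between genotypes of activated astrocytes 6 of 81 were called, each higher in SOD1G93A cells, where 0.645% of all genes were called, and limma without the trend called 0 of them: Ddx60 (3.63), Oasl2 (3.01), Nlrc5 (1.85), Trim25 (1.84), Zc3hav1 (1.52) and Irf7 (1.27). Trim25 and Zc3hav1 encode partners of RIG-I, and 3 of the 10 genes in that list of RNA sensing partners were among the 6. Trim25 went from a mean of 75.4 to 274 normalized counts and Oasl2 from 64.3 to 535, each without overlap, while Ddx60 rested on 10 reads at most in a WT library. Ddx60 is in the counts of 6 and of 3, yet it passed the filter on the mean only through its SOD1G93A libraries. None of 79 pathway genes in quiescent astrocytes and none of 91 in activated microglia was called between genotypes.

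With LPS, 33 of 92 pathway genes rose and 8 fell in WT microglia, where 10.2% of all genes rose and 10.6% fell. The 10 largest changes were those of Ifi205 (7.47), Oasl1 (6.85), Irf7 (5.51), Mlkl (5.12), Pyhin1 (4.81), Ifi203 (4.76), Oas1b (4.65), Oas2 (4.21), Oas3 (4.11) and Mnda (4.005). Among the oligoadenylate synthetases and RNase L, 8 of 9 rose, with a median of 3.64 over the 9. The Ifi200, Oas1 and Rnaset2 genes have near-identical copies, so the share of reads given to each is uncertain. At rest, 45 of 89 pathway genes were called higher and 4 lower in microglia than in astrocytes, beside 22.5% of all genes called higher and 24.8% called lower. Largest among these pathway genes were Pld4 (6.47), Irf5 (6.01), Gsdmd (5.58), Oas1a (5.38), Pycard (5.26), Zc3hav1 (5.03), Oasl2 (4.92), Ifi204 (4.91), Ripk3 (4.69) and Casp1 (4.38). Some rest on few astrocyte reads, Gsdmd and Casp1 being at 0.391 and 0.840 RPM per kilobase in quiescent WT astrocytes. Here and in the other pathway counts and rankings, genes that passed the filter on the mean only through the higher group were not set apart. In SOD1G93A astrocytes 12 of 83 rose and 1 fell with activation, beside 6.74% of all genes that rose and 6.59% that fell. The pathway changes were led by Ddx60 (4.54), Oasl2 (3.44), Nlrc5 (2.98), Trim25 (2.64), Casp1 (2.59), Ifi204 (1.86), Zc3hav1 (1.72), Rnf125 (1.65), Casp8 (1.29) and Ddit3 (1.196). The interaction of the cell types held 22 of 93 with the larger response in microglia, beside 6.73% of all genes, and 7 with the smaller, beside 8.44%. Its largest pathway differences were those of Ifi205 (7.57), Oasl1 (6.63), Irf7 (5.06), Oas2 (4.83), Ifi203 (4.19), Oas1g (4.06), Oas3 (3.94), Pyhin1 (3.93), Enpp1 (-3.21) and Mnda (3.14).

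Likeness in pattern was measured as the root mean square difference of centred log2 levels over the 7 conditions, among 12536 genes. The nearest gene was Irgm1 to Ddx58 (0.2997), Trim25 to Ifih1 (0.247), Npy to Dhx58 (0.257), Vps8 to Mavs (0.0852), H2-T22 to Ikbke (0.241), Cd274 to Zbp1 (0.236), Scimp to Aim2 (0.145), Gm6548 to Eif2ak2 (0.173), Spryd7 to Adar (0.109) and H2-K1 to Trex1 (0.116). Tap1 came among the nearest 3 of both Ifih1 (0.260) and Trex1 (0.285). Within the 10 genes, Eif2ak2 and Adar lay closest (0.328), followed by Ddx58 and Ifih1 (0.352), and Ifih1 and Trex1 (0.378). Mavs and Zbp1 lay farthest apart (2.85).

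The genes lie on 7 chromosomes, with Ifih1, Mavs and Zbp1 on chromosome 2 and Aim2 and Ikbke on chromosome 1. Ddx58, Ifih1 and Eif2ak2, the 3 called between genotypes in activated astrocytes, were read for the letters that interferon-responsive factors are known to bind, and so were the other promoters. Promoter sequences of RefSeq on GRCm38.p6, 250 bases before to 50 after each annotated start, were found for 8 of the 10 genes, and Dhx58 and Zbp1 had none. The motifs searched on both strands were GAAANNGAA, found in 8.56% of 32851 windows of that length, its longer form with a further A at the end, found in 3.44%, and GAAANGAAA, found in 3.17%. The longer form or the last one was in 6.27%. At least 1 of the motifs was in the windows of Ddx58, Ifih1, Eif2ak2 and Adar (the third of 3 starts), and none was in those of Mavs, Aim2, Ikbke and Trex1. The stretches below hold a match in each of these 4 genes, and each is given 5′ to 3′ on the gene's own strand. Capitals mark the match, which in the first stretch is on the other strand. They lie at chr4:40239804-40239833 and chr4:40239832-40239931 for Ddx58, chr2:62646206-62646235 for Ifih1 and chr17:78882535-78882564 for Eif2ak2, all on the minus strand, and chr3:89730735-89730764 for Adar on the plus strand.
Ddx58 at the start: cctgaggcagTTTCGATTTCctatggccag
Ddx58 before the start: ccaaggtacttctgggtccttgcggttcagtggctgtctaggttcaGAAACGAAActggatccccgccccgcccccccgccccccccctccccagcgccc
Ifih1: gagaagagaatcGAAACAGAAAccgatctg
Eif2ak2: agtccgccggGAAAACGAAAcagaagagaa
Adar: gccttttcaagGAAACGAAAgtgaactctg

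The matches lie 3 to 12 bases after the start and from -60 to -52 before it in Ddx58, 33 to 42 after it in Ifih1, 19 to 28 after it in Eif2ak2 and 29 to 37 after it in Adar. In Eif2ak2 a further match of GAAANNGAA overlaps the printed one at 25 to 33, and in Adar another overlaps at 34 to 42. Matches of that form also lie at -112 to -104 in Ifih1, on the other strand, and near the far end of the window in Adar. These are matches of letters in a window and show no binding, and the absence of a match says only that the letters are not in those windows.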

How the data were processed

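The authors aligned strand-specific poly(A) libraries to mm10 with STAR, counted reads with RSEM and compared groups with DESeq2, as their notes and methods state. What the authors deposited for each library is a signal, normalized counts, and their mean is another. The authors' own comparison columns hold log2 fold changes, their error, a score for each gene and its p-value before and after adjustment, and none was used. Whole reads were recovered for 100% of values (tolerance 0.02). The tests ran in R 4.3.3 with limma 3.58.1, and DESeq2 1.42.0 and edgeR 4.0.16 ran on recovered reads. The alternatives were pseudocounts of 0.5 and 5, other filters, TMM and quantile scaling, no trend, an adjusted p under 0.05, the replicate block and leaving out each library. Lengths and positions came from GENCODE M21. The procedure was tested on simulated data. Every one of the 10 genes that was tested was named in each comparison. Up to 10 called genes of the pathway lists, those with the largest log2 difference, were named as well. With the settings used throughout, Aim2 was not tested in any comparison of astrocytes alone. Genes and lists were chosen with earlier results of these data known. One table changes genotype and treatment together in microglia and served only to recover reads.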

Additional observations from a re-analysis of the deposited data

Results flagged for a closer look

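By limma with all libraries, the response to activation of 5 genes differed between the cell types in a test of the difference itself over the 12 WT libraries. The response of microglia to LPS was larger than that of astrocytes to cytokines by 3.459 on the log2 scale for Dhx58, 5.209 for Zbp1, 5.381 for Ikbke, 1.524 for Adar and 1.977 for Trex1. Cell type and stimulus cannot be told apart in this design. Ikbke kept its call in only 10 of 21 settings and lost it without any one of 9 libraries, and only Adar and Trex1 were tested and called where every library had to reach 10 (2 of 6 tested).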

How the results depend on the processing

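Over 981 member results under other settings 938 kept their sign and call, 9 lost a call, 27 gained one and 7 changed sign. Over 672 with 1 library left out the counts were 631, 21, 4 and 16. In quiescent astrocytes between genotypes, 7 genes were called by DESeq2, 4 at an adjusted p under 0.05 with more than 2-fold and 7 at that p with any fold. Under quantile normalization Dhx58 went to -0.0858 and Adar to 0.00891. In WT astrocyte activation, any fold change at that p gave 5 members, 35 pathway genes and 4722 genes, limma without the trend gave 4 pathway genes, and quantile normalization put Zbp1 at -0.14. Between genotypes of activated astrocytes, limma without the trend gave 0 members, 0 pathway genes and 1 gene. The looser p with more than 2-fold gave 123 genes, and with any fold 6 members, 14 pathway genes and 879 genes. LPS at any fold gave 72 pathway genes and 6185 genes. Between genotypes under LPS, 3 genes were called by DESeq2, 1 at either looser limit, and 3 without both libraries that stood apart, an alternative chosen after seeing the data that put Ikbke at 0.03. For microglia against astrocytes, at least 10 in every library left 4 members, and any fold gave 9448 genes. For LPS against cytokines the counts were 2 and 8 members under those settings, with 2855 genes at the looser p with more than 2-fold and 5052 with any fold, and a pseudocount of 5 put Aim2 at -0.065. In the interaction with genotype, 3 genes were called with a pseudocount of 5, 21 by DESeq2, 4 by edgeR, 28 at the looser p with more than 2-fold and 34 with any fold. In SOD1G93A astrocyte activation, any fold gave 7 members and 5328 genes, and Mavs was -0.00495 by DESeq2 and -0.0147 by edgeR. Leaving out 1 library gave 0 to 4 members, 4 to 10 pathway genes and 1087 to 1547 genes in WT astrocyte activation and 0 to 6 genes in the interaction with genotype. The lowest and highest log2 values of results that changed sign with 1 library left out were, between quiescent astrocytes, -0.20 to 0.19 (Dhx58), -0.71 to 0.02205 (Ikbke), -0.0307 to 0.255 (Eif2ak2) and -0.16 to 0.11 (Adar). They were -0.00227 to 0.288 (Adar) in WT astrocyte activation, -0.0752 to 0.0335 (Mavs) between activated astrocytes, -0.0748 to 0.038 (Ikbke) and -0.24 to 0.0312 (Eif2ak2) between genotypes under LPS, -0.49 to 0.61 (Aim2) for LPS against cytokines, -0.59 to 0.13 (Ikbke) in the interaction with genotype and -0.0967 to 0.129 (Mavs) in SOD1G93A activation. Across genes, the deviations of same-numbered replicates from their group means correlated at -0.44 to 0.06. That shows no pairing by number, but it cannot settle whether same-numbered cultures shared animals or a preparation. Between quiescent astrocytes, differently numbered libraries moved together, WT replicate 3 with SOD1G93A replicate 1 at 0.522 and WT replicate 1 with SOD1G93A replicate 3 at 0.351. A block for the numbers gave 100 genes between activated astrocytes, 1423 in WT astrocyte activation, 2201 with LPS and 1576 in SOD1G93A activation, with the same members called. The cause of these changes was not tested. Depth limits what can be said of Aim2, Ikbke, Dhx58 and Zbp1 in astrocytes and of Ikbke in quiescent microglia, which rest on few reads.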
